A study of Mus musculus with 6 samples.

Results

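Ptk7, Fzd7 and 8 further genes of the planar cell polarity and noncanonical Wnt pathway were followed in nuclei of mouse intestinal organoids. The members were the listed genes Ptk7, Fzd7, Vangl1, Vangl2, Celsr1, Ror2, Dvl1, Dvl2, Dvl3 and Prickle1, found by their Ensembl identifiers, so that 10 of the 31319 genes in the count matrices were members. Planar cell polarity aligns epithelial cells within the plane of a sheet. Its membrane complexes of Frizzled, Vangl and Celsr proteins sit at cell borders and are linked to the cytoskeleton by the cytoplasmic proteins Dishevelled (Dvl) and Prickle. Ptk7 is a pseudokinase of the cell surface and Ror2 a receptor tyrosine kinase, and both serve as receptors or co-receptors of Wnt signals that do not act through β-catenin. Ptk7 is also known as a surface protein of intestinal crypt cells, and Fzd7 as a Frizzled receptor of intestinal stem cells.

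The organoids came from crypts of the jejunum of C57BL/6 mice of 8 to 12 weeks of age, seeded again after dissociation and kept in medium conditioned by quiescent mouse embryonic fibroblasts (QCM) or by senescent ones (SCM), with 3 samples per medium. In the study, quiescence was brought about by low serum and senescence by X-rays or doxorubicin, which of these was used for the single-nucleus samples is not given in the sources used here, and the concentrated media were mixed with organoid growth medium in both groups. The secreted part of Ptk7 that the study followed comes from fibroblasts, and the nuclei measured here are those of the epithelial cultures that received the medium. Samples are named by medium and replicate number (QCM1 to SCM3), and the labels do not say whether replicates were separate animals, so that p-values measure the spread between these samples.

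The 6 samples held 38154 nuclei with 4071926 to 41035733 transcript molecules (UMIs) each. SCM1 stood apart with 430 nuclei against 3791 to 10833 in the others, and 175 of its cell barcodes (40.7% of its nuclei) were also present in QCM1, of which 40 carried the same cluster number in both. Other pairs of samples shared at most 0.358% of the nuclei of the smaller one. The shared barcodes held 49.9% of the UMIs of SCM1, and its 10 deepest nuclei held 36.7%. Its nuclei in the deposited cluster 14, a cluster with a median of 39433 UMIs per nucleus, held much of its member counts. They gave 12 of its 32 Ptk7 UMIs, 14 of its 24 Fzd7 UMIs and 57 of its 123 Vangl1 UMIs. Ratios are therefore also given without SCM1. The share of UMIs from ribosomal protein genes was 14.1%, 4.92% and 10.3% in QCM1 to QCM3 and 4.17%, 2.61% and 7.25% in SCM1 to SCM3. The epithelial markers summed to between 2860 and 4268 CPM (UMIs of a gene scaled to a total of 1000000 per sample). The 10 fibroblast markers summed to 4.09 to 10.5 CPM in QCM and 3.68 to 4.81 CPM in SCM, so that defining fibroblast genes were near 0 in all 6 samples. The 4 endothelial markers summed to 3.21 to 9.08 CPM, and the 6 immune markers found in the matrices to at most 4.12 CPM.

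The members were sparse. Ptk7 was seen in 748 nuclei and Fzd7 in 806, with only 44 nuclei holding a UMI of both, and those 44 had a median of 25433 UMIs against 2139 over all nuclei. The smallest number was that of Celsr1, in 387 nuclei, and the largest that of Ror2, in 11412. In 20852 nuclei no UMI of any member was found, and these had a median of 1786 UMIs. Levels were therefore compared on UMIs summed over all nuclei of a sample, or of a cluster within a sample. Fewer cells with a transcript and fewer transcripts per cell cannot be told apart in such sums.

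Ptk7 (ENSMUSG00000023972) lies on chromosome 17 from 46564471 to 46629504 on the minus strand of GRCm38, and Fzd7 (ENSMUSG00000041075) on chromosome 1 from 59482424 to 59486955 on the plus strand. The start regions of both receptors are shown because YAP, which acts through TEAD factors, was followed in the study beside Ptk7. Each window holds 250 bases before and 50 bases after the annotated start of transcription, from RefSeq on GRCm38.p6, read 5′ to 3′ on the strand of the gene. The gene positions above are from GENCODE M21, and the 2 sources differ for Fzd7. Its window ends at 59482196, before the gene start of 59482424 given above. Capitals mark CATTCC, the core of the TEAD motif, searched together with its reverse complement GGAATG on both strands.
Ptk7, chr17:46629455-46629754, minus strand: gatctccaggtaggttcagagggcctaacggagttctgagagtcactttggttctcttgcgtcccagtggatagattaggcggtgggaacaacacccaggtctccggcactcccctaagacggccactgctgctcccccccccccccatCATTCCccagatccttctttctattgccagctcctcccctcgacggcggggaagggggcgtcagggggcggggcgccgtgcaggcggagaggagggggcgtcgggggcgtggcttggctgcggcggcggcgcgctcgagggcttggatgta
Fzd7, chr1:59481897-59482196, plus strand: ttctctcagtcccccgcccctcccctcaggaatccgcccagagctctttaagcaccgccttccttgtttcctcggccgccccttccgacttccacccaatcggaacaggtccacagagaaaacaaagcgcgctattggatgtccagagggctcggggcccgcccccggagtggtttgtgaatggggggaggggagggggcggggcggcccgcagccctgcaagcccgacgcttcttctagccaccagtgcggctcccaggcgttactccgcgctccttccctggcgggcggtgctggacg
The Ptk7 window held 1 match, beginning 101 bases before the start, and the Fzd7 window held none. Windows were available for 8 of the 10 members, and Dvl2 was the other of the 2 members with a match. Of all 32851 windows of this length, 4817 (14.7%) held the motif. A match is a description of the letters in the window and not of binding.

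Summed over all nuclei, Ptk7 and Vangl1 were the members with the largest ratios in favour of SCM, Fzd7 was slightly lower in SCM, and no member passed the test. The edgeR quasi-likelihood test called 0 of the 10 members at an adjusted p of 0.05, against 0.0% of the 19046 genes tested, of which 866 had an unadjusted p under 0.05, and DESeq2 and voom with limma also called 0 of the 10, where they called 0.11% and 0.0% of all genes. At an unadjusted p under 0.05, edgeR, DESeq2 and voom each had 2 members, against 866, 1225 and 577 of the 19046 genes. These counts are in either direction. For edgeR the 2 were Ptk7 and Vangl1, both higher in SCM, where 1.46% of all genes tested were by edgeR. The median log2 ratio of SCM to QCM over all genes tested was −0.01, and over the members 0.06, with 6 of 10 above 0. When libraries were scaled by their total UMIs alone, the median of all genes was 0.14.

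Among the receptors, Ptk7 had 2.61, 6.22 and 6.02 CPM in QCM1 to QCM3 and 7.86, 13.9 and 7.35 CPM in SCM1 to SCM3. The media did not overlap, with SCM2 far above the other samples and QCM1 far below them. The means were 4.95 ± 2.03 CPM in QCM and 9.72 ± 3.67 CPM in SCM (SD, n = 3). On the log2 scale SCM was 0.86 above QCM (SE 0.37, edgeR adjusted p 0.93), a value that was 1.00 without SCM1, 0.96 without the barcodes that QCM1 and SCM1 share, and 0.51 without SCM2. When the share of ribosomal protein UMIs, given above per sample, entered the fit as a covariate, it was 0.33, and the part of that share in the Ptk7 values was not tested further. Of all genes tested, 4.99% had all 3 SCM samples above all 3 QCM samples, and Ptk7 was the 1 member of which this was true.

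Fzd7, a Frizzled receptor, had 5.82, 6.05 and 7.83 CPM in QCM and 5.89, 5.39 and 6.38 CPM in SCM. The groups overlapped, and the 6 samples stood closer together than those of Ptk7. The means were 6.57 ± 1.10 and 5.89 ± 0.50 CPM (SD, n = 3), with a log2 ratio of −0.31 (SE 0.26), edgeR adjusted p 0.93, and −0.29 without SCM1. The ratio stayed below 0 in each alternative run, from −0.46 to −0.09. Ror2, the receptor of Wnt5a-type ligands, had 91.3, 209 and 130 CPM in QCM and 185, 208 and 156 CPM in SCM. QCM2 was as high as SCM2, and QCM1 was the lowest sample. Its log2 ratio was 0.23 (SE 0.24), and 0.24 without SCM1, 0.077 without QCM1, 0.51 without QCM2, 0.15 without QCM3 and 0.13 without SCM2. After the ribosomal protein covariate it turned to −0.18.

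Among the core membrane proteins, Vangl1, a membrane protein of the core complex, had 10.8, 19.4 and 10.7 CPM in QCM and 30.2, 30.0 and 17.3 CPM in SCM. SCM1 and SCM2 were above every QCM sample, and SCM3 was below QCM2. Of the 123 UMIs of SCM1, 57 came from the very deep nuclei of cluster 14. SCM was 0.77 above QCM on the log2 scale (SE 0.28, edgeR adjusted p 0.93), or 0.66 without SCM1 and 0.37 after the ribosomal protein covariate. Its paralog Vangl2 had 8.80, 9.47 and 12.3 CPM in QCM and 14.5, 10.2 and 8.69 CPM in SCM, with a log2 ratio of −0.06 (SE 0.26). The range of the SCM samples enclosed that of QCM, and the difference was well within the spread. Without SCM1 the ratio was −0.25. Celsr1, an atypical cadherin that joins neighbouring cells, had 1.27, 3.42 and 3.66 CPM in QCM and 1.47, 5.72 and 3.21 CPM in SCM. The samples with replicate number 1 were lowest in both media, with 52 UMIs in QCM1 and 6 in SCM1. Its log2 ratio was 0.27 (SE 0.53), and 0.58 without SCM1, but −0.0055 without QCM1, −0.25 without SCM2 and −0.26 after the ribosomal protein covariate, so its direction was not stable.

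The cytoplasmic members, which pass the signal to the cytoskeleton, had ratios near 0. Dvl1 had 25.9, 39.5 and 53.4 CPM in QCM and 45.9, 36.5 and 39.3 CPM in SCM. The QCM samples differed among themselves by more than the media did, and the log2 ratio was −0.11 (SE 0.23). Dvl2 had 13.6, 11.4 and 16.7 CPM in QCM and 17.9, 13.1 and 13.2 CPM in SCM, with a log2 ratio of −0.10 (SE 0.25). Dvl3 had 10.2, 19.2 and 12.8 CPM in QCM and 13.8, 18.4 and 17.1 CPM in SCM, with a log2 ratio of 0.10 (SE 0.24). In all 3 Dishevelled genes the media overlapped, and without SCM1 the ratios of Dvl1, Dvl2 and Dvl3 were −0.18, −0.23 and 0.22. Prickle1, which binds Vangl on the inner face of the membrane, had 8.89, 11.2 and 13.9 CPM in QCM and 19.6 CPM in SCM1 against 8.27 and 11.1 CPM in SCM2 and SCM3. SCM1 was the highest sample and SCM2 the lowest, and the log2 ratio was 0.015 (SE 0.33), or −0.34 without SCM1.

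**Figure D1:**
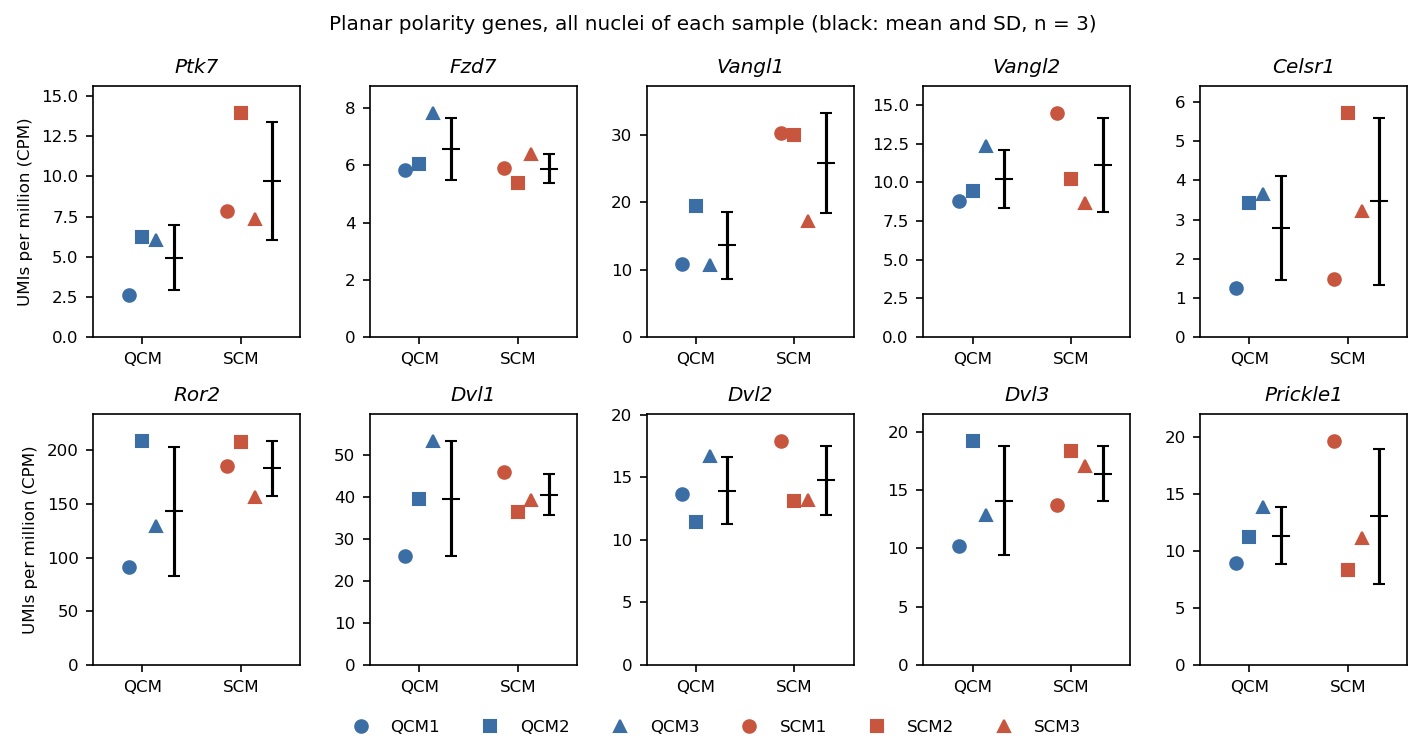
Level (CPM, y axis of each panel, from 0) of the 10 members in the 3 QCM and 3 SCM samples. Points are samples, with replicate numbers 1, 2 and 3 as circle, square and triangle, and black bars are the mean and SD (n = 3). Ptk7 is the 1 panel without overlap between the media, 2.61 to 6.22 against 7.35 to 13.9 CPM.

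Some members overlap genes on the opposite strand, and whether strand was used in counting is not given in the sources used here. The noncoding gene Gm26904 spans all of Ptk7 and had 135 to 204 CPM in QCM and 129 to 179 CPM in SCM, with a log2 ratio of −0.22 (SE 0.21), so its sign was opposite to that of Ptk7. Acadvl, an enzyme gene of fatty acid oxidation, overlaps 2119 bases of Dvl2 and had a log2 ratio of −0.97 (SE 0.35). The overlaps of Vangl1, Dvl1 and Dvl3 with opposite genes were shorter than 1000 bases, and no protein-coding gene on the same strand overlapped a member.

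Across the deposited clusters, numbered 0 to 14 without names, the members had different patterns. The clusters were made from these same nuclei, so the levels are a description and were not tested. They are means over those samples in which a cluster had 10 or more nuclei, in order over the 14 clusters with at least 100 nuclei. By marker genes, cluster 9 was enteroendocrine-like (12 of 12 markers at least 2-fold above the other nuclei) and cluster 10 likewise (6 of 12), cluster 7 was fetal-like (9 of 10), cluster 8 enterocyte-like (7 of 10), cluster 6 goblet-like (7 of 8) and cluster 11 tuft-like (5 of 8). Cluster 6 also had 4 of 9 Paneth markers. Cluster 1 had 7 of 10 enterocyte markers, as many as cluster 8, together with 4 of 9 Paneth and 3 of 8 goblet markers, and is given by number like the other clusters. Fetal-like refers to Clu, Anxa1 and other genes of fetal and regenerating epithelium.

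Ptk7 was highest in the enteroendocrine-like cluster 9, with 13.1, 14.7 and 10.6 CPM in QCM1 to QCM3 and 32.6 and 17.7 CPM in SCM2 and SCM3 (17.7 ± 8.72 CPM, SD, n = 5). It was above the other nuclei of the sample in 5 of 5 samples. The fetal-like cluster 7 came next, with 4.16, 13.0 and 5.26 CPM in QCM and 19.5, 30.0 and 17.4 CPM in SCM (14.9 ± 9.66 CPM, SD, n = 6). The value of SCM1 there rests on 3 UMIs. Pooled over samples the order of these clusters turned, with 18.8 CPM in cluster 7 from 161 UMIs and 16.0 CPM in cluster 9 from 59 UMIs. The enterocyte-like cluster 8 was lowest, at 1.77 ± 1.90 CPM (SD, n = 6), with 13 UMIs in 1416 nuclei and none in QCM2 and SCM1, and cluster 1, which shares its enterocyte markers in part, had 4.63 CPM. Cluster 9 was thus 10.0 times cluster 8 by mean level, but none of the 13 steps between neighbours in the order was larger than the larger SD of the pair.

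The order of clusters by Ptk7 was not that of the stem cell markers. The summed stem list, which includes Lgr5 and Olfm4, was highest in cluster 0 at 3982 CPM, where Ptk7 had 6.86 CPM pooled. It was lower in clusters 7 and 9, at 2798 and 2846 CPM, where Ptk7 was highest, and lowest in cluster 8 at 1904 CPM, where Ptk7 was lowest too.

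Vangl1 was highest in cluster 7, with 21.5, 34.8 and 21.0 CPM in QCM and 65.1, 60.5 and 45.7 CPM in SCM (41.4 ± 19.0 CPM, SD, n = 6). In 6 of 6 samples this was its highest cluster among those in the order. Cluster 14, which is not in the order, had 34.87 CPM in QCM2, against 34.77 CPM in cluster 7. The step from cluster 7 down to cluster 5, at 22.1 ± 14.7 CPM, was 19.3 CPM and only just larger than the larger SD. In cluster 5, SCM1 had 48.8 CPM from 5 UMIs. Without SCM1 the means were 36.7 CPM in cluster 7 and 16.8 CPM in cluster 5, which then lay below the 21.3 CPM of cluster 9. Whether a step stays beyond the spread without SCM1 was not tested. Clusters 5, 9, 0, 2, 3, 6, 11, 12, 1, 10, 4 and 8 then followed without a step beyond the spread, down to 12.8 CPM in cluster 8. Cluster 13 was lowest at 1.27 CPM, from 1 UMI in 160 nuclei, and that step too was beyond the spread.

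Fzd7 was comparatively flat. Its mean level ran from 3.8 ± 2.06 CPM in cluster 8 to 9.09 ± 12.4 CPM in cluster 13, a 2.39-fold range, and the highest cluster held only 5 UMIs. None of its 13 steps was beyond the spread. In cluster 9, where Ptk7 was highest, Fzd7 had 6.00 CPM, and in cluster 7 it had 4.89 CPM, below its median over clusters of 6.15 CPM.

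Celsr1 was highest in the goblet-like cluster 6, with 2.5, 13.3 and 3.01 CPM in QCM and 6.68, 12.3 and 10.7 CPM in SCM (8.08 ± 4.71 CPM, SD, n = 6), followed by clusters 7 and 9 at 5.59 and 5.54 CPM. Cluster 6 was its highest in 3 of 6 single samples. It was lowest in cluster 10 at 1.30 CPM, from 2 UMIs. Ror2 and Dvl1 shared their highest cluster with Ptk7, with 231 ± 89.2 CPM of Ror2 and 51.8 ± 11.9 CPM of Dvl1 in cluster 9 (SD, n = 5). Within single samples cluster 9 ranked highest for Ror2 in 4 of 5 and for Dvl1 in 0 of 5. Both were lowest in cluster 13, at 85.1 and 22.7 CPM. In cluster 7, Ror2 was below the other nuclei of the sample in 6 of 6 samples, as was Prickle1. Prickle1 had its highest mean in cluster 2, at 15.9 ± 4.22 CPM (SD, n = 6), although that cluster ranked highest in 0 of 6 single samples, and lowest in cluster 12, at 4.09 CPM from 3 UMIs. The levels of Vangl2, Dvl2 and Dvl3 ranged 1.92-fold, 1.88-fold and 2.14-fold over clusters, and their highest clusters 11, 13 and 12 held 19, 7 and 16 of their UMIs. For Celsr1, Ror2, Dvl1 and Prickle1, 0 of the 13 steps between neighbouring clusters went beyond the spread over samples, so these orders are of means only.

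**Figure D2:**
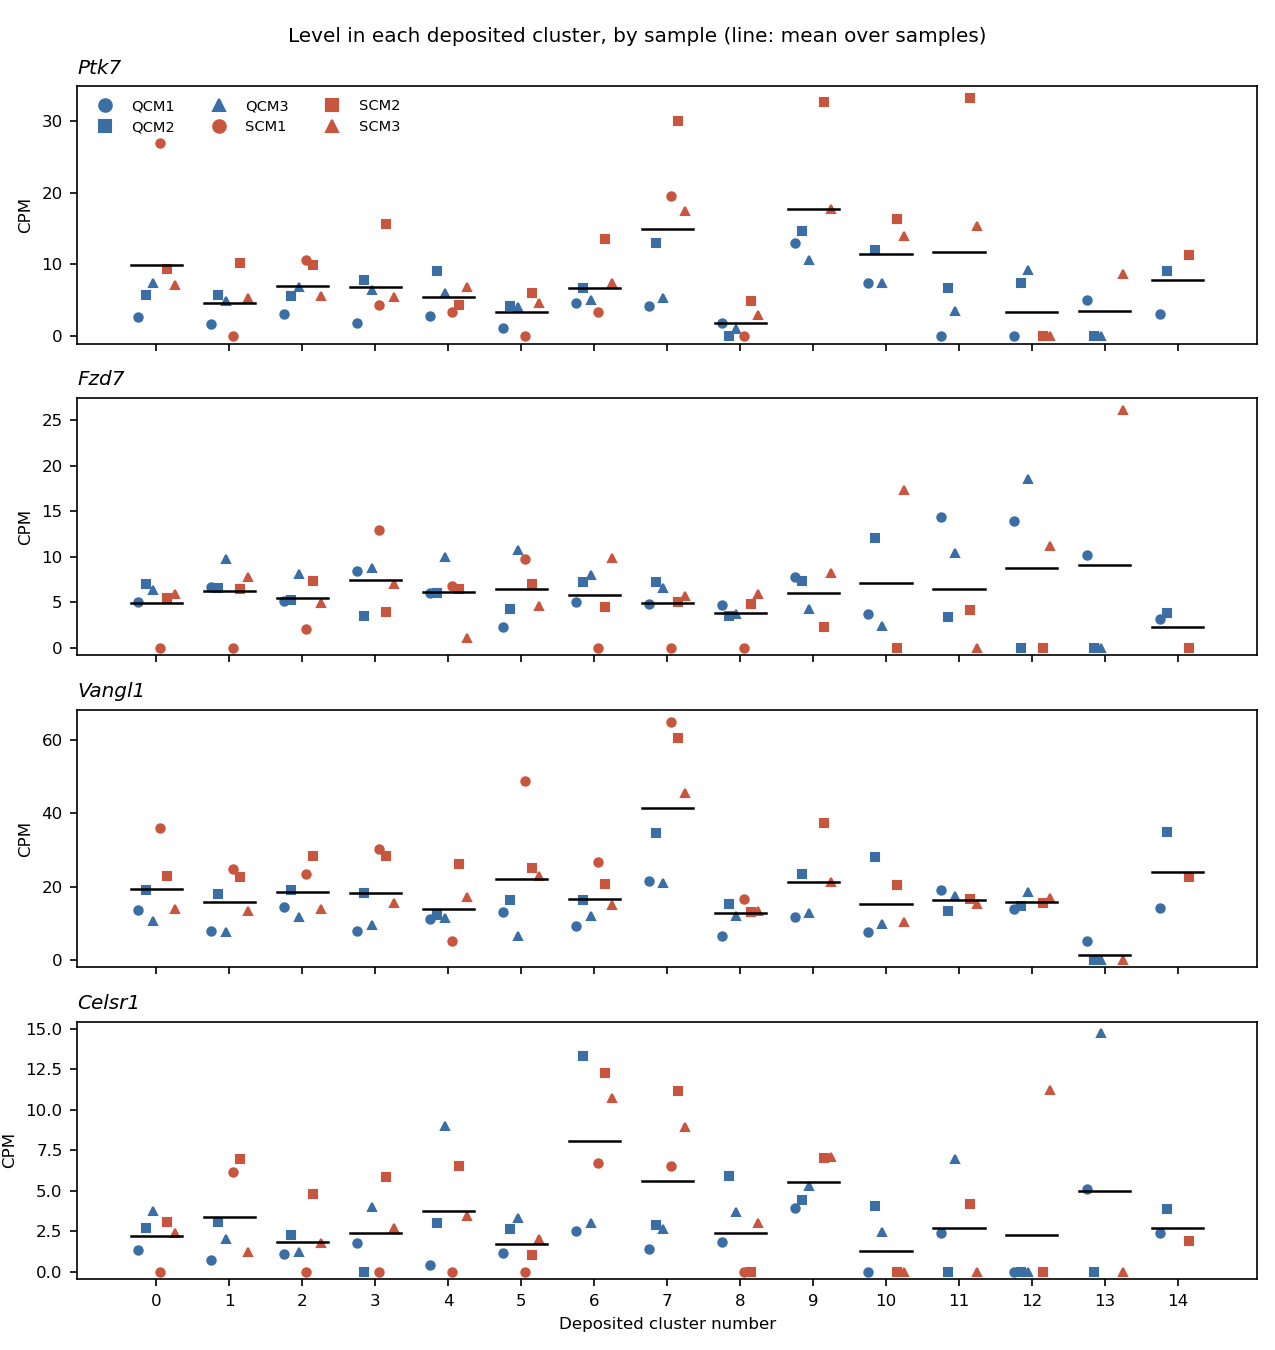
Level (CPM, y axis) of Ptk7, Fzd7, Vangl1 and Celsr1 in each deposited cluster (x axis). Points are samples in which the cluster had 10 or more nuclei, coloured by medium and shaped by replicate number, and lines are means over samples. Ptk7 stands highest in clusters 9 and 7 (17.7 and 14.9 CPM), Vangl1 in cluster 7 (41.4 CPM), Celsr1 in cluster 6 (8.08 CPM), and the mean of Fzd7 lies between 3.8 and 9.09 CPM in clusters 0 to 13.

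Within clusters the media were compared to hold the mix of cells apart from the level. The 13 clusters with enough samples gave 81 tests of members, and edgeR called 0 of them, as did DESeq2, which gave an adjusted p for 46 of them and called 0.03% of all pairs of a gene with a cluster. At an unadjusted p under 0.05, 3 of the 81 were higher in SCM, where 1.2% of all gene and cluster pairs were, and 0 were lower, where 4.55% were. The 3 were Ptk7 and Vangl1 in cluster 7 and Vangl1 in cluster 5. DESeq2 had 2 at that level in either direction. Over all genes its counts per cluster ran from 164 of 10250 in cluster 9 to 794 of 10515 in cluster 7. The share over all pairs was not taken, and nothing is read from the 2. Ptk7 had a ratio above 0 in 5 of the 5 clusters in which it was tested, with a median log2 ratio of 0.71, and Vangl1 in 9 of 9, with a median of 0.59. Only clusters in which the gene passed the filter on low counts enter these counts. Over all 13 clusters compared, passed or not, the mean CPM was higher in SCM in 11 for Ptk7 and 12 for Vangl1. Ptk7 ran the other way in cluster 4, at 5.95 CPM in QCM and 4.87 CPM in SCM, and in cluster 12, which held 2 UMIs, both in QCM. Vangl1 did so in cluster 11, at 16.6 CPM in QCM and 16.0 CPM in SCM. On this measure the other members ran from 3 clusters for Fzd7 and Dvl1 to 12 for Ror2. CPM is scaled by total UMIs alone. With that scaling, edgeR ratios were above 0 for 50.3% (cluster 8) to 66.9% (cluster 1) of the genes tested in a cluster. The share of all genes with such counts was not taken. In the main edgeR fits, Ror2 was above 0 in 12 of 13 clusters with a median of 0.23. Fzd7 was below 0 in 5 of 6 clusters with a median of −0.24, Dvl1 in 10 of 12 with a median of −0.19, and Dvl2 in 7 of 10 with a median of −0.12. The clusters come from the same 6 samples, so these counts are not independent of each other.

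Cluster 7 had the largest within-cluster ratio of a member. Ptk7, whose values there are given above, did not overlap between the media, with SCM2 highest at 102 UMIs and QCM3 at 4. Its log2 ratio was 1.62 (SE 0.47), edgeR adjusted p 0.34, and 1.65 without SCM1. Vangl1 did not overlap either, with a log2 ratio of 0.99 (SE 0.29), edgeR adjusted p 0.34, and 0.93 without SCM1. Vangl2 and Celsr1 also had all SCM samples above all QCM samples in cluster 7 but were too low for the filter, and Ptk7, with 4 to 9 UMIs in the QCM samples, needed its SCM samples to pass it. Of the genes tested there 10.2% had all SCM samples above all QCM samples and 3.4% had an unadjusted p under 0.05 in favour of SCM, and nothing is read from the members' count. With no filter on low counts, edgeR gave Ptk7 in cluster 7 a log2 ratio of 1.68 and an adjusted p of 0.037. That setting called 440 of 25688 genes in the cluster (1.71%), against 0 with the filter, and over all clusters it called 1 of 130 member pairs, where it called 0.984% of all pairs. After the ribosomal protein covariate the ratio was 0.81, and without SCM2 it was 1.22.

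Outside cluster 7 the media did not overlap in Ptk7 either, with 2.55, 6.02 and 6.05 CPM in QCM and 7.40, 10.8 and 6.48 CPM in SCM. The distance between QCM3 and SCM3 was then small. Ptk7 was the 1 of 10 members without overlap there, where 6.31% of all genes had none. To see whether the difference between media was larger inside the cluster, the log2 ratio of the level in cluster 7 to that in the other nuclei was taken per sample, after 0.5 UMIs had been added to both counts. For Ptk7 it was 0.81, 1.19 and −0.039 in QCM and 1.6, 1.47 and 1.44 in SCM, and all SCM samples were above all QCM samples. The mean difference was 0.85, with p = 0.1 in a two-sided exact permutation test, the smallest p that 3 samples against 3 can give, so the test could not pass 0.05. For Vangl1 the ratios were 1.06, 0.91 and 1.07 in QCM and 1.24, 1.34 and 1.63 in SCM, a mean difference of 0.39 with p = 0.1 in the same exact permutation test. Of the 10 members so compared, Celsr1 and Prickle1 also had p = 0.1 in the exact permutation test, with mean differences of 1.83 and −0.86. In all, 4 of the 10 members had no overlap between media in this ratio, where 9.12% of all genes had none. Without the added 0.5 UMIs the mean differences of Ptk7, Vangl1, Celsr1 and Prickle1 were 0.89, 0.39, 1.98 and −1.01. The Celsr1 value rests on 2 UMIs in cluster 7 of each QCM sample and on 1 in SCM1. In cluster 7 of SCM1, Prickle1 likewise had 1 UMI and Ptk7 had 3.

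**Figure D3:**
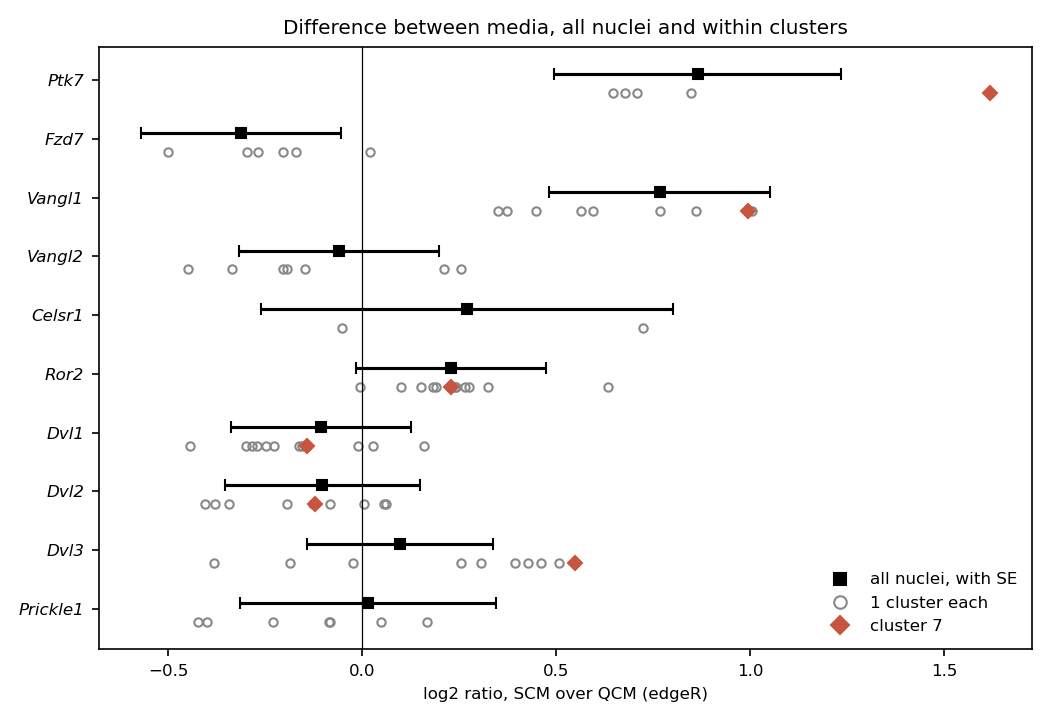
Ratio of SCM to QCM on the log2 scale (x axis) for the 10 members (y axis). Black squares are all nuclei with 1 SE to each side, open circles are single clusters and red diamonds the fetal-like cluster 7. Only clusters in which a gene passed the filter on low counts are drawn. All circles so drawn for Ptk7 and Vangl1 lie above 0, and the diamond of Ptk7 lies at 1.62.

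When the mix of clusters was fixed, the Ptk7 levels of the media did not overlap, but the level of SCM1 rested on few UMIs. The 9 clusters with at least 10 nuclei in every sample were weighted by their mean share of nuclei. Ptk7 then had 2.47, 6.25 and 5.88 CPM in QCM and 10.2, 10.1 and 6.48 CPM in SCM. Of the 10.2 CPM of SCM1, 7.15 CPM came from 3 UMIs in cluster 0, and the other clusters together gave 3.05 CPM. Without the part of cluster 0 the same mix gave 1.77, 4.73 and 3.91 CPM in QCM and 3.05, 7.64 and 4.57 CPM in SCM, which overlap. With all 9 clusters in the mix, the means were 4.87 CPM in QCM and 8.94 CPM in SCM. For these the two-sided exact permutation test of 3 samples against 3 gave p = 0.1. Vangl1 had 11.6, 18.2 and 10.3 CPM in QCM and 28.5, 25.4 and 16.0 CPM in SCM, with p = 0.2 in the exact permutation test, and SCM3 lay below QCM2. Fzd7 had means of 6.63 and 4.77 CPM in QCM and SCM with p = 0.4 in the exact permutation test, where SCM1 was lowest at 2.45 CPM and had no Fzd7 UMI in 5 of the 9 clusters. Without SCM1 the difference of SCM to QCM in Fzd7 went from −1.86 to −0.69 CPM. The other 7 members had exact permutation p-values of 0.4 to 0.8. Ptk7 was the 1 of 10 members without overlap, where 7.2% of all genes had none, and with clusters weighted equally Ptk7 and Vangl1 were the 2, where 7.77% of all genes had none. With equal weights the media were barely apart in Vangl1, with QCM2 at 18.84 CPM and SCM3 at 18.95 CPM. Cluster 4 had a weight of 11.2% in the main mix but held 5.98% of all nuclei, and 36.5% of those of SCM1. Cluster 7 made up 2.72% to 3.82% of the nuclei in QCM samples and 3.95% to 4.84% in SCM samples. The fetal markers summed to 107 to 188 CPM in QCM and 269 to 829 CPM in SCM, and their part in the Ptk7 values was not tested beyond this weighting. Markers of mature cells also differed, with enterocyte markers at 5524, 1346 and 2708 CPM in QCM and 586, 1190 and 2015 CPM in SCM, Paneth markers at 537 to 2678 and 343 to 585 CPM, and enteroendocrine markers at 242 to 442 and 108 to 252 CPM. QCM1, with the highest enterocyte sum, had the lowest Ptk7, and the part of these markers was likewise not tested beyond this weighting.

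**Figure D4:**
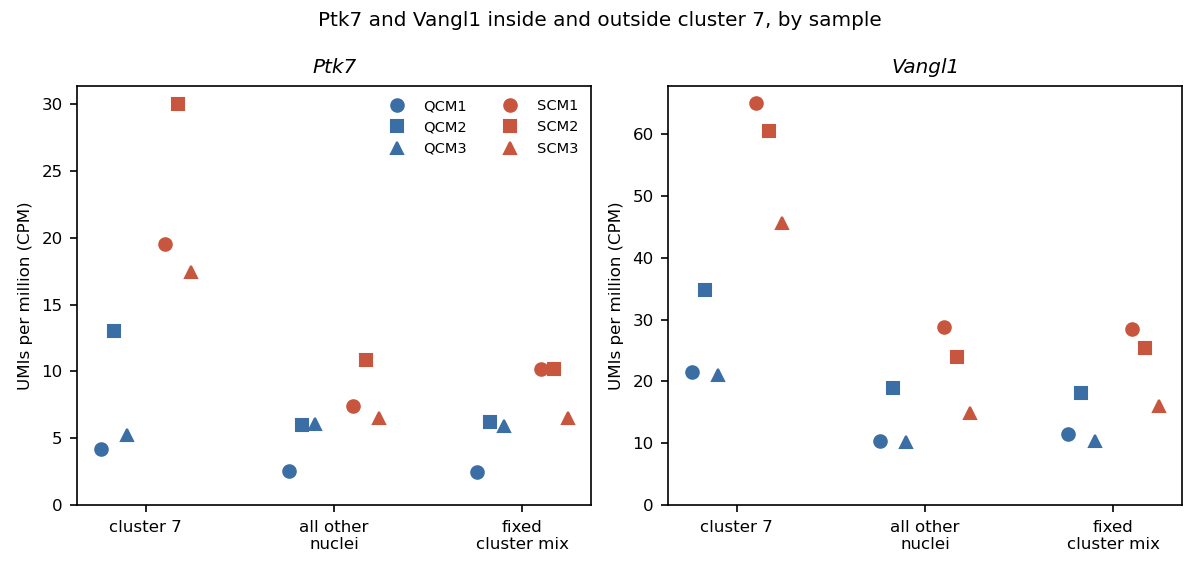
Level (CPM, y axis from 0) of Ptk7 and Vangl1 in each sample, in the fetal-like cluster 7, in all other nuclei, and with a fixed mix of 9 clusters (x axis). Colours are media and shapes replicate numbers. Ptk7 in SCM lies above QCM in all 3 settings, with 7.15 of the 10.2 CPM of SCM1 in the fixed mix from 3 UMIs, and Vangl1 in cluster 7 only, where its SCM samples run from 45.7 to 65.1 CPM.

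The other genes of the pathway were described by lists, of which edgeR called 0 of 73 tested genes, as did DESeq2 and voom. In the list of other planar polarity genes, 20 of 25 were tested, 12 ratios were above 0, and the median log2 ratio was 0.10. They ran from Prickle2 at −1.77 (SE 0.98), with 67 of its 123 UMIs in QCM3, to Wdpcp, a ciliary planar polarity effector, at 0.34 (SE 0.19). Of the other Frizzled receptors, 7 of 9 were tested with a median of −0.12. Fzd5 was at −0.39 (SE 0.23) and Fzd8, with 125 UMIs in all, at −0.12 (SE 0.72). Fzd6 was highest at 0.22 (SE 0.18) and Fzd4 lowest at −0.44 (SE 0.32), and none of these passed the test.

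Of the 19 Wnt ligands, 5 had at least 100 UMIs over all samples, with the most for Wnt2b (1623) and Wnt5b (1488). In its intestinal organoids the study proposes an interaction of Wnt5a with Ptk7. Wnt5a, which also signals through Ror2 and Ptk7 in other systems, had 19 UMIs over the 6 samples, with none in SCM1. Wnt11 had 9 and Wnt3a 25, and none of these 3 was tested. Of 21 ligand and secretion genes 8 were tested, 7 of them with a ratio above 0 and a median of 0.21. They ran from Wnt5b at −0.34 (SE 0.22) to Wnt7a at 1.6 (SE 0.85), and 54 of the 100 UMIs of Wnt7a were from SCM2. These counts concern the organoid nuclei and not the fibroblasts that conditioned the medium.

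Among co-receptors, the 4 noncanonical ones had a median of 0.11, from Ryk at −0.14 (SE 0.16) to Mcam at 1.21 (SE 0.57), where SCM2 held 94 of 223 UMIs. The canonical co-receptors Lrp5 and Lrp6 were at 0.31 (SE 0.21) and 0.19 (SE 0.24). Of the protease and γ-secretase genes linked to cutting of Ptk7, all 8 were tested with a median of −0.19. Mmp14, which sheds the outer part of Ptk7, was highest at 0.41 (SE 0.76), Adam17 was at 0.094 (SE 0.19), and the γ-secretase subunit Psenen was lowest at −1.16 (SE 0.51), with QCM1 at 89.8 CPM against 17.1 to 36.1 CPM in the other 5 samples.

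Of the calcium effectors downstream of noncanonical Wnt signals, 24 of 26 were tested, 16 with a ratio above 0, and the median was 0.15. Nfatc2, a transcription factor that calcineurin activates, had 6.51, 9.31 and 10.8 CPM in QCM and 17.4, 19.3 and 14.9 CPM in SCM. All SCM samples were above all QCM samples. Its log2 ratio of 0.81 (SE 0.22, edgeR adjusted p 0.93) was the highest of the list, and it was the 1 gene of the 24 tested in the list with an unadjusted p under 0.05, where 1.46% of all genes tested had one in favour of SCM and 4.99% had all SCM samples above all QCM samples. The kinase genes Camkk2, Camk2a, Camk2b, Camk2d and Camk2g were at 0.083, 0.29, −0.035, 0.26 and 0.28, with SEs of 0.27, 1.1, 0.50, 0.24 and 0.18, so each lay within 2 SE of 0. Yap1 was at 0.18 (SE 0.17), with 84.4 to 139 CPM in QCM and 132 to 151 CPM in SCM.

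Over the 14 clusters, the genes whose pooled log2(CPM + 1) was most like that of Ptk7, among 10954 genes with at least 1000 UMIs, were Abcc4 (Pearson r 0.93), Nbeal2 (0.91), Hdac7 (0.91), Sh3bp4 (0.91) and Nfatc2 (0.88). Abcc4, Hdac7 and Sh3bp4 were highest in cluster 7, and Nbeal2 and Nfatc2 in cluster 9, the pair of clusters in which Ptk7 was highest. For Fzd7 they were Yars2 (0.95), Grwd1 (0.94), Cenpm (0.90), Gpn3 (0.89) and Mrpl39 (0.88), all highest in cluster 13, where Fzd7 had 5 UMIs. The points of each correlation are clusters of the same libraries that differ in depth, and these values are descriptions. Between members, the highest value was that of Vangl1 and Dvl1 (0.68) and the lowest that of Fzd7 and Vangl1 (−0.62). Both include the point of cluster 13, where Vangl1 had 1 UMI and Fzd7 had 5.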

How the data were processed

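The authors counted reads with Cell Ranger (version 2.1.1 in the submitters' processing notes) on mm10, removed outlying nuclei and clustered the rest after Harmony integration. The deposited matrices hold UMI counts per gene and nucleus, and the deposited table gives cluster numbers as labels. All 38154 nuclei were used, no doublet caller was run, and Ensembl identifiers were given symbols from GENCODE M21 (31258 of 31319 matched).

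Counts of a sample's nuclei were added up, overall and by cluster (at least 10 nuclei, at least 2 samples per medium), and compared with the edgeR 4.0.16 quasi-likelihood test (TMM, filterByExpr, Benjamini-Hochberg over all genes tested, threshold 0.05) in R 4.3.3, after a check on simulated counts. DESeq2 1.42.0, limma 3.58.1 and other settings were alternatives. CPM is UMIs scaled to a total of 1000000 in the sample or cluster, and SE is the log2 ratio divided by the root of F. Single values per sample were compared with exact permutation tests (scipy 1.17.1, Python 3.11.15).

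The members, lists and tests were chosen with earlier results of these data known. The 10 members are given in every sample. From other lists, the genes the study follows and the highest and lowest ratio of each list are named (1 of these is not reported here), and for Ptk7 and Fzd7 the 5 genes most like them across clusters. Marker limits (3 markers, 2-fold, 5 CPM), the omission of shared barcodes and the comparison of cluster 7 with other nuclei, with and without the added 0.5 UMIs, were chosen after seeing the data.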

Additional observations from a re-analysis of the deposited data

How the results depend on the processing

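Ptk7 and Vangl1 had ratios above 0 in all 16 alternatives run on all nuclei, from 0.33 to 1.02 and from 0.37 to 1.00 on the log2 scale, and Fzd7 was below 0 in all 16. No alternative on all nuclei called a member or a list gene. Within clusters, 1 of 130 member pairs was called without the low-count filter, Ptk7 in cluster 7, where 0.984% of all pairs were. DESeq2 gave no adjusted p for 35 of the 81 member tests. With the fixed mix, 1 member did not overlap, 2 with equal weights, and 1 to 4 when a sample was left out. It was 3 without QCM1, 4 without QCM2 and 2 without SCM3, where 11.9%, 33.3% and 25.6% of all genes did not overlap. Depth limits single clusters of SCM1, where Ptk7 rests on 3 UMIs in cluster 0 and on 3 in cluster 7.

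Of 160 member ratios under an alternative 23 turned sign, and of 322 of other named genes 26 did, and the cause was not tested. With library size alone these were Vangl2 (0.11), Dvl1 (0.032), Dvl2 (0.071), Camk2b (0.067), Fzd8 (0.13) and Ryk (0.010), where the median of all genes was 0.14. With the mean over nuclei they were Dvl1 (0.027) and Dvl2 (0.20). With the ribosomal protein share as covariate they were Vangl2 (0.012), Celsr1 (−0.26), Ror2 (−0.18), Dvl2 (0.21), Dvl3 (−0.11), Adam17 (−0.10), Camk2d (−0.025), Fzd8 (1.04), Lrp5 (−0.025) and Lrp6 (−0.14). With voom they were Prickle1 (−0.17), Camk2a (−0.56) and Camk2b (0.32), and without the shared barcodes Prickle1 (−0.081) and Camk2b (0.020). When 1 sample, or both samples numbered 1, were left out, the ratios ran from −0.26 to 0.058 for Vangl2, −0.25 to 0.58 for Celsr1, −0.34 to 0.13 for Dvl1, −0.28 to 0.0049 for Dvl2, −0.41 to 0.27 for Prickle1, −0.028 to 0.22 for Adam17, −1.82 to 1.27 for Camk2a, −0.39 to 0.65 for Camk2b, −0.15 to 0.23 for Camkk2 and −0.66 to 0.84 for Fzd8.

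Whether replicate numbers pair the samples was not settled, and the main fit was unpaired. The deviations of same-numbered samples correlated at 0.36, 0.46 and −0.09. Those of QCM2 with SCM1 correlated at −0.41 and those of QCM1 with SCM2 at −0.46. The remaining pairs ran from −0.094 to 0.16. A replicate block called no member in all nuclei or in clusters, and turned Prickle1 (−0.049), Camk2b (0.15) and Fzd8 (0.15). Of all genes it called 0 of 19046 in all nuclei. Within clusters it called 208 of 10250 genes in cluster 9, 35 of 6634 in cluster 11, 4 of 3795 in cluster 12 and 1 of 10515 in cluster 7. In the remaining clusters it called none. The cluster with the highest mean level of a member changed in 15 of 70 combinations of member and alternative.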
